A study of Drosophila melanogaster with 36 samples.

Results

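Biogenic amines are the small transmitters dopamine, serotonin, octopamine and tyramine, and the genes described here make them and move them across membranes. The 8 genes examined were ple (tyrosine hydroxylase), Ddc (dopa decarboxylase), Tdc2 (the neuronal tyrosine decarboxylase), Tbh (tyramine beta-hydroxylase), Hn (phenylalanine hydroxylase), Vmat (the vesicular monoamine transporter), DAT (the dopamine transporter) and SerT (the serotonin transporter). A probe set, the group of short probes that reads 1 transcript or a few related ones, was taken as a member when its annotation named 1 gene only and that gene was on this list. Of 18769 fly probe sets on the array, 10 met the rule. They cover 7 of the 8 listed genes, among 11983 genes with such a probe set, with 4 probe sets for Vmat and 1 each for ple, Ddc, Tdc2, Tbh, DAT and SerT. Hn had no probe set of this kind and is not analysed here.

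RNA came from pools of 40 whole adult males, with 1 Affymetrix array per pool and 3 pools per group, 36 arrays in all. G85R flies carried a UAS transgene for human SOD1 with the G85R substitution, which is linked to familial amyotrophic lateral sclerosis (ALS). The control flies carried a UAS transgene for fly SOD1 of normal sequence (dSOD1). Each transgene was driven by D42-Gal4 and M1B-Gal4 together (MN+glia), by D42-Gal4 alone, which is active in motoneurons (MN), or by M1B-Gal4 alone, which is active in glia (glia), and flies were sampled at 45 days (45d) and 5 days (5d). All 12 groups therefore held a Gal4 driver and an overexpressed SOD1, and none was free of a transgene. Each driver is 1 fly line, so the cells it drives in and the rest of that line's genotype cannot be told apart. The transgenes differ in the species of SOD1 as well as in the substitution, and no group carried human SOD1 of normal sequence. In a G85R difference, the substitution, the human form of SOD1 and the rest of each UAS line's genotype therefore cannot be told apart. Whole flies include the body wall and gut as well as the nervous system, and in such pools fewer cells of a type and less RNA per cell cannot be told apart.

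Dopamine is made from tyrosine, which ple converts to dopa and Ddc converts onward. Ddc also completes serotonin synthesis, and outside the nervous system ple and Ddc supply dopamine for hardening and colouring the cuticle. Tdc2 makes tyramine and Tbh turns it into octopamine, the insect counterpart of noradrenaline. Vmat packs all of these amines into synaptic vesicles, and DAT and SerT return dopamine and serotonin from the synapse to the nerve terminal.

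Values are log2 signals as deposited, and a level of 1 probe set cannot be set against that of another. Array medians lay between 6.41 and 6.55. The MN+glia G85R 5d replicate 2 array stood apart in its RNA control probe sets, with 3' minus 5' signals of 5.72 for actin, 4.29 for GAPDH and 6.34 for eIF-4a, against 2.39 to 3.25, 1.61 to 2.17 and 2.34 to 3.28 on the other 35 arrays. On that array the 10 member probe sets read close to those of the same group's other arrays for most members. It lay farthest outside them in Tbh, at 3.94 beside 4.31 and 4.46, and in the Vmat probe set 1628739_at, at 8.34 beside 8.07 and 8.15. Member differences that passed and use this group at 5d are given with and without that array. Male markers (5 probe sets) averaged 10.8 to 11.7 log2 over the 12 group means, and female markers (3 probe sets) 4.79 to 6.39. Group means were 5.73 to 6.22 for the 11 neuronal and 9.61 to 9.95 for the 5 glial marker probe sets.

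The level of every probe set on every array is plotted by driver, transgene and age. On all 36 arrays ple ranged over 3.20 to 3.87, Tbh over 3.70 to 4.49 and the Vmat probe set 1632856_s_at over 3.78 to 4.47. Those 3 were among the dimmest 25% of probe sets, and none of them passed the test in any comparison. Group means spanned 1.52 log2 units for Vmat 1637393_at, 1.05 for DAT, 1.01 for Vmat 1636275_a_at and 0.62 for Vmat 1628739_at. The span was 0.53 for SerT, 0.49 for Tdc2 and 0.40 for Ddc. Between groups next to each other in the order of means, the gap exceeded the larger SD of the pair in 5 of 11 steps for Vmat 1636275_a_at, in 2 of 11 for Vmat 1637393_at and in 1 of 11 each for Vmat 1628739_at, Ddc and ple. In DAT, Tdc2, Tbh, SerT and Vmat 1632856_s_at no neighbours were further apart than that.

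**Figure D1:**
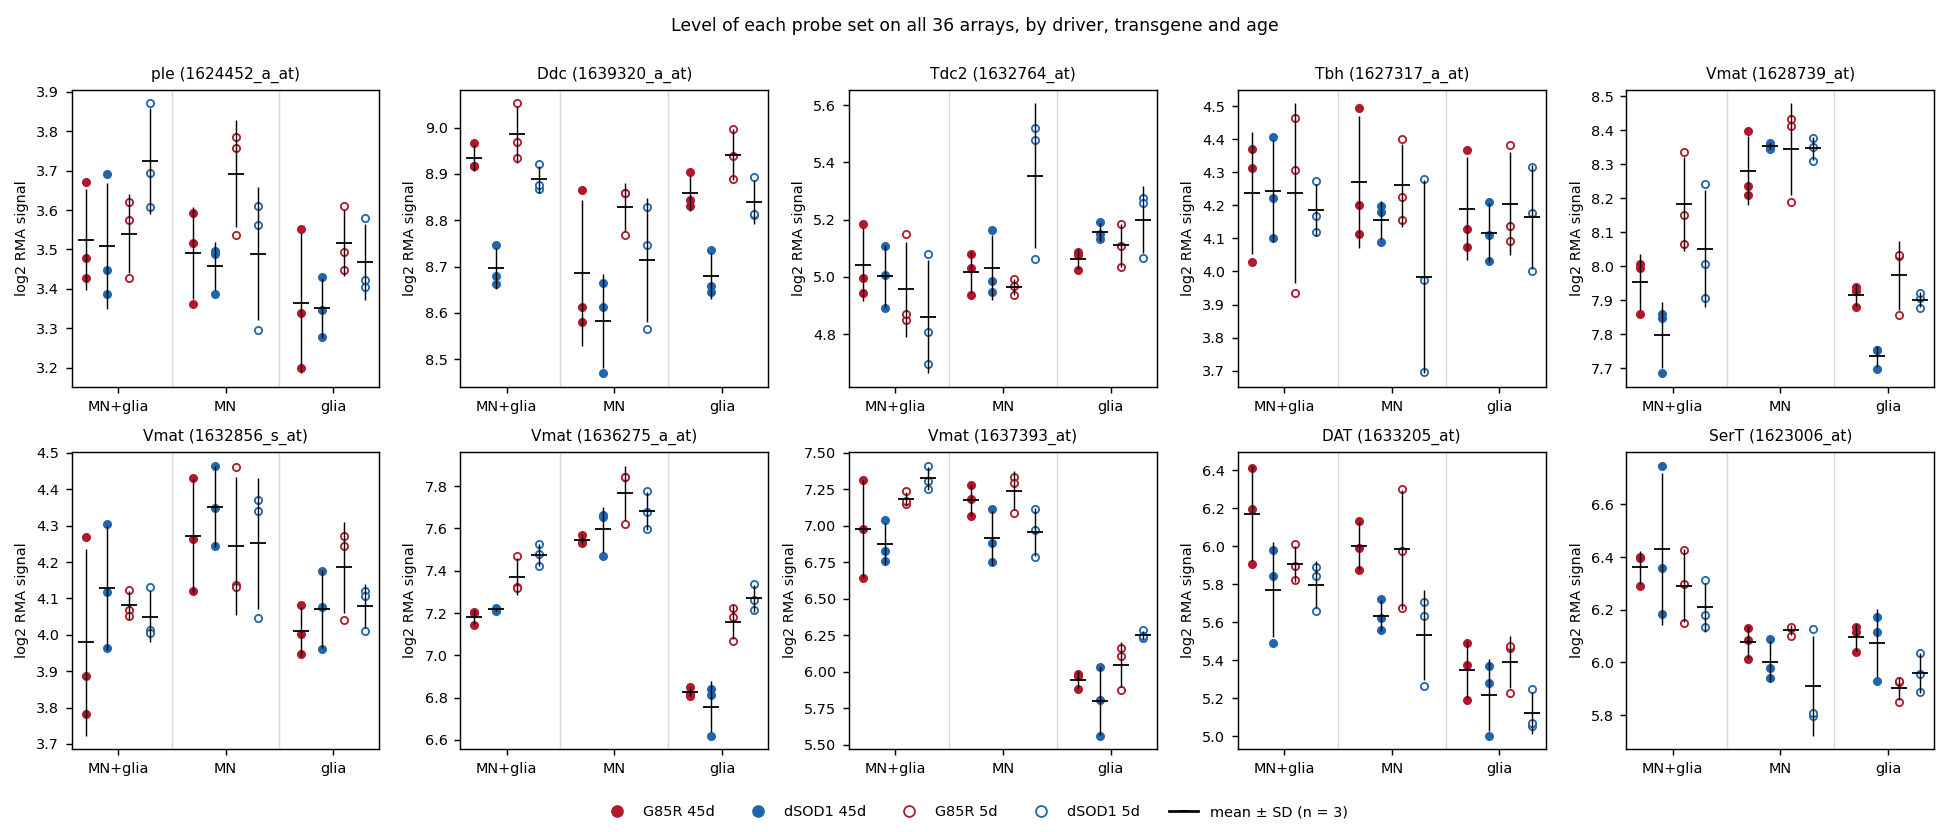
Log2 signal (y axis, scaled for each panel) of the 10 member probe sets on 36 arrays, with drivers along the x axis and, within each driver, G85R 45d, dSOD1 45d, G85R 5d and dSOD1 5d from left to right. Points are arrays, ticks are group means and bars are SD (n = 3). The 12 glia arrays lie below all MN+glia and MN arrays for Vmat 1637393_at, with a highest value of 6.29 against a lowest of 6.64 in MN+glia flies and 6.75 in MN flies.

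The largest differences among these genes were between driver lines. DAT and the Vmat probe sets 1637393_at and 1636275_a_at were higher in both lines with D42-Gal4 than in flies with M1B-Gal4 alone, with either SOD1 transgene and at both ages. Vmat 1632856_s_at passed in no comparison, and Vmat 1628739_at passed as higher than in glia flies in MN flies only. SerT passed as higher in MN+glia flies than in another line in 4 of 8 comparisons. A difference is said to pass the test when its adjusted p was 0.05 or less in limma, with Benjamini-Hochberg adjustment over all 18769 probe sets of that comparison. Of 60 pairs of a member probe set and a driver comparison, 19 passed in G85R flies (31.7%) and 24 in dSOD1 flies (40.0%). Over all probe sets, 17.4% and 18.5% of pairs passed in G85R flies and in dSOD1 flies. Vmat gave 13 of the 19 calls and 15 of the 24, from 24 pairs in each set. Its 4 probe sets are readings of 1 gene. Of 6 pairs each in G85R and in dSOD1 flies, DAT gave 4 and 4 calls and SerT 1 and 3. Ddc gave 1 and 0, Tdc2 gave 0 and 2, and ple and Tbh gave none. The genes were chosen with earlier results of these data known.

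For MN minus glia, the share of all probe sets that passed was 19.1% in G85R 45d flies, 20.3% in dSOD1 45d flies, 21.6% in G85R 5d flies and 16.4% in dSOD1 5d flies. For MN+glia minus glia it was 16.4%, 20.7%, 21.1% and 18.4% in the same order, and for MN+glia minus MN it was 11.4%, 13.2%, 14.9% and 22.0%. The G85R 5d shares without the degraded array were 16.8% for MN+glia minus glia and 11.2% for MN+glia minus MN. The same number of member pairs, 19, passed in G85R flies without it.

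Vmat 1637393_at showed the widest gap. In G85R flies at 45d it read 7.28, 7.18 and 7.06 on the MN arrays and 7.31, 6.98 and 6.64 on the MN+glia arrays, against 5.98, 5.97 and 5.88 on the glia arrays. All D42 arrays were thus above all glia arrays. The MN minus glia difference was 1.23 (SE 0.12, 2.34-fold, adjusted p = 7.57e-09) and the MN+glia minus glia difference was 1.03 (SE 0.12, adjusted p = 2.96e-07). In dSOD1 flies at 45d the arrays read 6.83, 6.76 and 7.04 in MN+glia flies, 6.75, 7.11 and 6.88 in MN flies and 5.81, 5.56 and 6.03 in glia flies. MN minus glia was 1.11 (SE 0.12, 2.16-fold, adjusted p = 4.88e-08).

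At 5d the glia arrays of Vmat 1637393_at were again below those of both D42 lines. G85R flies had 7.15, 7.23 and 7.17 with MN+glia and 7.33, 7.29 and 7.09 with MN, against 6.11, 5.88 and 6.16 with glia. The MN minus glia difference was 1.19 (SE 0.12, adjusted p = 1.39e-08), and MN+glia minus glia was 1.13 (SE 0.12) with all arrays and 1.11 (SE 0.14, adjusted p = 1e-06) without the degraded one. In dSOD1 flies the difference was smaller for MN minus glia, at 0.70 (SE 0.12, adjusted p = 0.000113), than for MN+glia minus glia, at 1.07 (SE 0.12, adjusted p = 1.84e-07). Here MN+glia exceeded MN by 0.37 (SE 0.12, adjusted p = 0.0334), a call that was lost without MN replicate 1 (0.28) or 3 (0.37) and without MN+glia replicate 2 (0.38) or 3 (0.32). It was also lost on renewed quantile normalization (0.28, adjusted p = 0.0989) and with cyclic loess (0.29).

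The other Vmat probe sets placed the MN+glia flies differently. Vmat 1636275_a_at took an intermediate level in MN+glia flies, with a median of 7.27 (7.14 to 7.53), compared with 7.64 (7.47 to 7.84) in MN flies and 6.96 (6.62 to 7.34) in glia flies over 12 arrays each. All 12 of its driver differences passed the test. MN minus glia was 0.41 to 0.84, MN+glia minus glia was 0.21 to 0.46, and MN+glia minus MN was -0.40 to -0.21 (SE 0.07 each). In dSOD1 flies at 45d its arrays read 7.21, 7.22 and 7.22 with MN+glia, 7.47, 7.66 and 7.65 with MN and 6.81, 6.62 and 6.84 with glia, with no overlap between any of these groups. Without the degraded array, MN+glia minus MN in G85R 5d flies was -0.37 (SE 0.07, adjusted p = 0.000737) and MN+glia minus glia was 0.24 (SE 0.07, adjusted p = 0.0253). The MN+glia minus glia calls of Vmat 1636275_a_at at 5d were lost in G85R flies without glia replicate 2 (0.17) or MN+glia replicate 3 (0.16), and in dSOD1 flies without replicate 1 or 2 of either group (0.18 to 0.20). Its MN+glia minus MN call in dSOD1 flies at 5d was lost without MN replicate 1 or 2 and without MN+glia replicate 2 or 3 (-0.21 to -0.16). Both MN+glia minus glia calls at 5d were also lost on renewed quantile normalization (0.17 in G85R and 0.15 in dSOD1 flies) and with cyclic loess (0.16 and 0.14). Fitted to the arrays of the compared groups only, the Vmat 1636275_a_at calls at 5d passed neither for MN+glia minus glia nor for MN+glia minus MN (adjusted p up to 0.14).

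Vmat 1628739_at, the probe set of this gene with the highest mean, set MN flies apart from both other lines. Its median over 12 arrays was 8.0 in MN+glia flies (7.68 to 8.34), 8.35 in MN flies (8.19 to 8.43) and 7.89 in glia flies (7.70 to 8.03). MN minus glia passed in all 4 combinations of transgene and age, at 0.37 to 0.62 (SE 0.08), and these groups did not overlap. MN+glia minus MN passed in 3 of 4, at -0.33 and -0.55 at 45d in G85R and dSOD1 flies and -0.30 in dSOD1 flies at 5d, where the call of Vmat 1628739_at was lost without MN+glia replicate 1 (-0.22) and when fitted to the compared arrays only (adjusted p = 0.0622). MN+glia minus glia passed in none of 4, with differences of 0.04 to 0.21. The 0.21 was in G85R flies at 5d, with the degraded array, and had an adjusted p of 0.0518. It passed under some alternatives, such as a replicate block (adjusted p = 0.0491). In dSOD1 flies at 5d this difference passed with array weights (0.25, adjusted p = 0.00517). In Vmat 1632856_s_at none of 12 driver differences passed, and values ran from -0.29 to 0.28. Its MN minus glia differences at 45d passed with cyclic loess and on renewed quantile normalization. The latter gave 0.32 in G85R (adjusted p = 0.0372) and 0.32 in dSOD1 flies (adjusted p = 0.0336). The annotation does not say which Vmat transcripts each probe set reads.

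DAT separated the lines in the same direction as Vmat 1637393_at. In G85R flies at 45d it read 6.20, 6.41 and 5.91 with MN+glia and 6.13, 5.99 and 5.88 with MN, against 5.49, 5.19 and 5.38 with glia. No glia array reached an array of either D42 line in that combination of transgene and age. The MN+glia minus glia difference was 0.82 (SE 0.14, 1.77-fold, adjusted p = 8.23e-05), the largest for DAT among 12 driver differences, and MN minus glia was 0.65 (SE 0.14, adjusted p = 0.00111). Over the 4 combinations, MN+glia minus glia was 0.52 to 0.82 and MN minus glia was 0.41 to 0.65. All 8 passed. The MN minus glia calls in dSOD1 flies had the highest p-values, 0.0434 at 5d and 0.0339 at 45d. For DAT the 5d call was lost without MN replicate 1 or 2 and without glia replicate 1 or 3 (0.32 to 0.38), on renewed quantile normalization (0.41) and with array weights (0.36), and the 45d call without MN replicate 2 or 3 and without glia replicate 1 or 2 (0.31 to 0.45). MN+glia and MN flies differed by -0.07 to 0.26, and none of these passed. At 5d in G85R flies MN+glia minus glia was 0.52 (adjusted p = 0.00822) with all arrays and 0.56 (SE 0.16, adjusted p = 0.0133) without the degraded array, and did not pass without glia replicate 1 (0.44).

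SerT was higher in MN+glia flies, with 6.30 as the median of 12 arrays (6.13 to 6.75), compared with 6.09 in MN flies (5.79 to 6.13) and 6.0 in glia flies (5.85 to 6.17). Of its 8 comparisons of MN+glia with another line, 4 passed the test. MN+glia minus MN was 0.17 to 0.43 and MN+glia minus glia was 0.25 to 0.39. In G85R flies at 45d SerT passed neither against MN (0.28) nor against glia flies (0.27). Both passed under several alternatives, among them array weights (0.30 and 0.29) and fits to the compared arrays only (adjusted p = 0.0305 and 0.0163). Against MN flies SerT also passed there on renewed quantile normalization (0.28). In dSOD1 flies at 45d it read 6.36, 6.75 and 6.18 with MN+glia, 5.94, 5.98 and 6.09 with MN and 5.93, 6.12 and 6.17 with glia. MN+glia minus MN was 0.43 (SE 0.10, adjusted p = 0.00279) and MN+glia minus glia was 0.36 (SE 0.10, adjusted p = 0.00849), and the MN+glia replicate 2 array was the highest of all 36. Without that array the SerT differences were 0.27 and 0.20, and neither passed. The MN+glia minus glia call was also lost without glia replicate 1 (0.29). Neither SerT call in dSOD1 flies at 45d passed when fitted to the compared arrays only (adjusted p = 0.0725 and 0.087). At 5d in dSOD1 flies MN+glia minus MN was 0.30 (SE 0.10, adjusted p = 0.0287), and SerT did not pass there without MN replicate 1 or 3 or MN+glia replicate 2 or 3 (0.24 to 0.31), on renewed quantile normalization (0.24), with cyclic loess (0.27) or when fitted to the compared arrays only (adjusted p = 0.0799). In G85R flies at 5d MN+glia minus glia was 0.39 (SE 0.10, adjusted p = 0.00446), and 0.39 (SE 0.11, adjusted p = 0.0144) without the degraded array. MN minus glia passed in none of 4, with values of -0.07 to 0.22.

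Among the synthetic enzymes the lines differed less. Ddc was higher in MN+glia than in MN flies in G85R flies at 45d, by 0.25 (SE 0.07, adjusted p = 0.0116), and Ddc did not pass there without MN replicate 1 (0.21) or 3 (0.19) or MN+glia replicate 2 (0.23), or when fitted to the compared arrays only (adjusted p = 0.118). Tdc2 passed in 2 of 12 driver comparisons, both in dSOD1 flies at 5d. Its arrays there read 4.69, 4.81 and 5.08 with MN+glia, against 5.48, 5.06 and 5.52 with MN and 5.07, 5.28 and 5.26 with glia. MN+glia minus MN was -0.49 (SE 0.10, adjusted p = 0.000711) and MN+glia minus glia was -0.34 (SE 0.10, adjusted p = 0.0174), although the MN+glia replicate 3 array overlapped the other group in each. The MN+glia minus glia call of Tdc2 was lost without replicate 1 or 2 of MN+glia or replicate 2 or 3 of glia (-0.31 to -0.26). For ple and Tbh none of 12 driver comparisons each passed, with differences of -0.15 to 0.26 and -0.18 to 0.20.

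**Figure D2:**
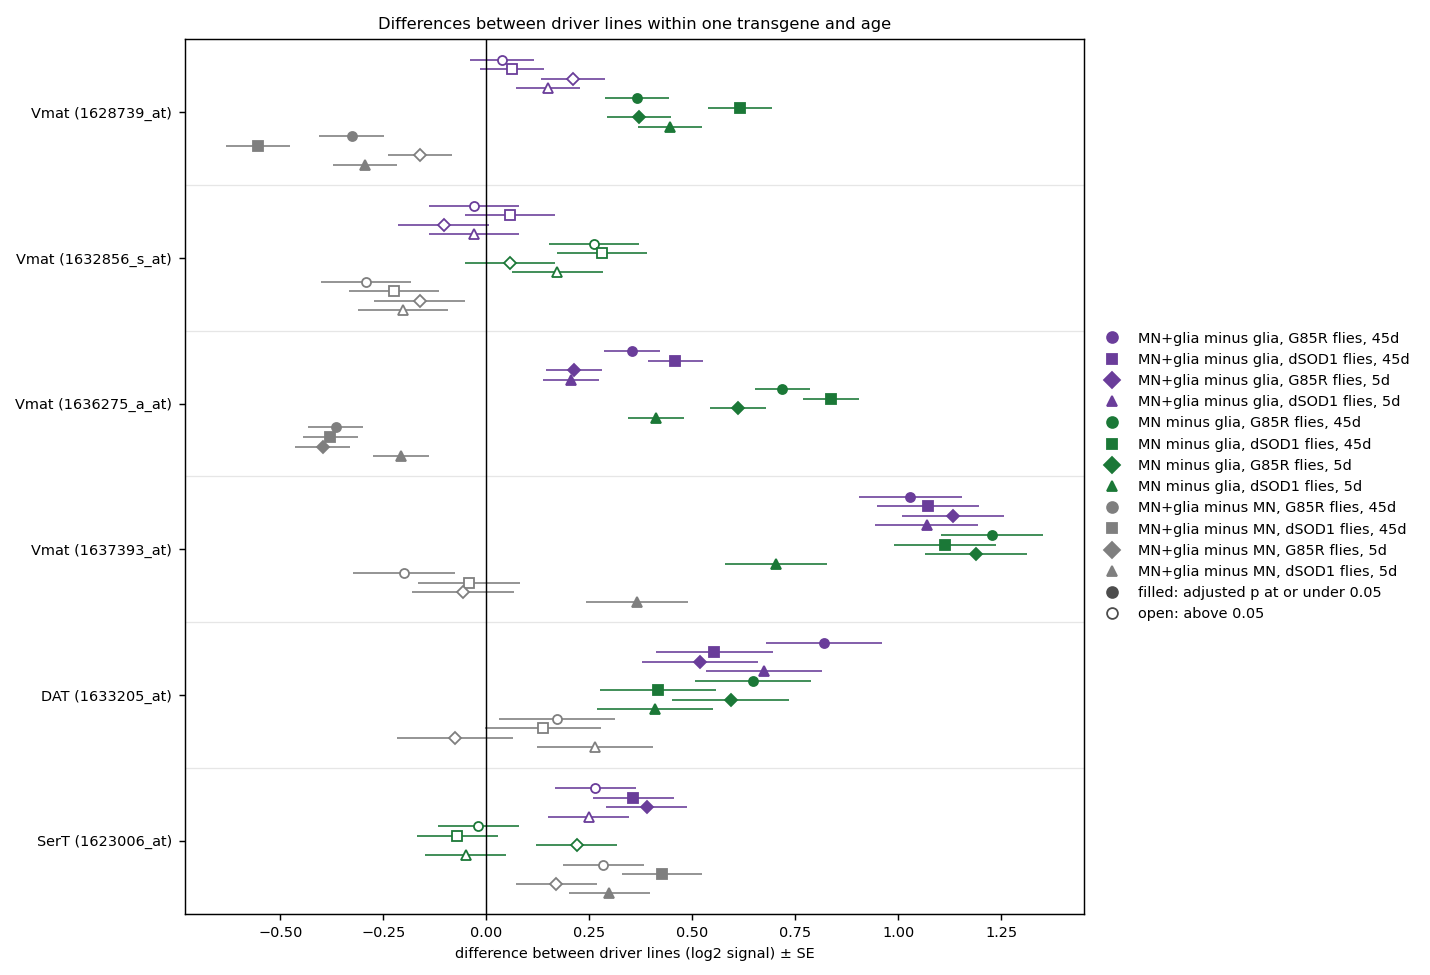
Difference between driver lines in log2 signal (x axis, bars are SE) for the 4 Vmat probe sets, DAT and SerT. Colours mark the pair of lines and symbols mark transgene and age, with filled symbols for an adjusted p of 0.05 or less. Vmat 1637393_at lies at 0.70 to 1.23 for MN minus glia and at 1.03 to 1.13 for MN+glia minus glia.

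The pan-neuronal marker elav was higher by 1.93 to 2.18 in MN than in glia flies and by 1.85 to 2.04 in MN+glia than in glia flies, and all 8 differences passed. The vesicle protein gene nSyb was higher by 0.53 to 0.77 in MN than in glia flies. Of the 11 probe sets of the neuronal list (7 genes), 2 or 3 were higher and 0 or 1 lower for MN minus glia, and 4 or 5 were higher and 0 lower for MN+glia minus glia. Of all probe sets, 16.4% to 21.6% passed for MN minus glia and 16.4% to 21.1% for MN+glia minus glia. Group means of the list were 6.04 to 6.22 in MN+glia, 5.98 to 6.19 in MN and 5.73 to 5.95 in glia flies. The median difference over the list was -0.04 to 0.10 for MN minus glia and -0.04 to 0.19 for MN+glia minus glia. In the glial list of 5 probe sets, all 5 were higher in MN+glia than in glia dSOD1 flies at 45d and 0 or 1 in the other 3 such comparisons. Against MN flies, 1 to 3 glial and 0 to 4 neuronal probe sets were higher in MN+glia flies, where 11.4% to 22.0% of all probe sets passed. Over all driver comparisons, 16 of 66 neuronal pairs were higher in the first-named line and 2 lower in G85R flies. In dSOD1 flies 18 were higher and 3 lower. Of 30 glial pairs, 5 were higher and 1 lower in G85R flies, and 12 higher and 2 lower in dSOD1 flies. The part of these markers in the Vmat, DAT and SerT differences was not tested.

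Among other genes of the amine pathways, the dopamine receptor DopEcR showed the same separation of lines at a larger size. DopEcR encodes a receptor for dopamine and ecdysteroids. It read 7.55, 7.42 and 7.43 in MN+glia, 7.64, 7.52 and 7.67 in MN and 6.36, 5.99 and 5.93 in glia flies with G85R at 45d. Over the 4 combinations MN minus glia was 1.06 to 1.52 and MN+glia minus glia was 1.37 to 1.5 (SE 0.13 each), and all 8 passed. Without the degraded array, DopEcR differed by 1.29 for MN+glia minus glia in G85R flies at 5d (SE 0.14, adjusted p = 1.13e-07). No glia array exceeded 6.90, and no MN array was below 7.38 or MN+glia array below 7.42. The dopamine receptor list (4 probe sets, 3 genes) had 8 calls in 24 pairs in G85R flies and 8 of 24 in dSOD1 flies, all higher in the first-named line, beside 17.4% and 18.5% of all pairs. DopEcR gave 4 of the 8 in each. The list of amine conjugation and breakdown genes had 3 pairs higher and 7 lower in the first-named line, of 24 in G85R flies. In dSOD1 flies it had 3 higher and 10 lower of 24. For MN minus glia at 45d, the acetyltransferase gene AANATL2 gave -0.53 with G85R and -0.57 with dSOD1. In the same comparisons tan (t) gave 0.25 and 0.40. The beta-adrenergic-like octopamine receptor Octbeta1R (probe set 1626050_at) was higher in MN+glia than in glia flies by 0.59 to 0.77 in all 4 combinations (SE 0.12). The value in G85R flies at 5d was 0.77 with all arrays and 0.59 without the degraded one (adjusted p = 0.000554). The other 2 Octbeta1R probe sets did not show this, and 1640745_at was lower by 0.31 in MN+glia than in glia dSOD1 flies at 5d.

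With age, every member difference that passed was a fall, and Vmat accounted for 9 of 11. At 45d against 5d, 4 of 30 member pairs passed in G85R flies (13.3%) and 7 of 30 in dSOD1 flies (23.3%). Both shares were below those of all probe sets, which were 31.7% in MN+glia, 39.2% in MN and 34.2% in glia G85R flies and 38.3%, 45.3% and 40.5% in the dSOD1 flies of the same lines. In MN+glia G85R flies 31.0% passed without the degraded array, and 3 of the 30 member pairs in G85R flies passed.

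Vmat 1636275_a_at fell in 5 of 6 ageing comparisons. In glia G85R flies it read 6.82, 6.81 and 6.85 at 45d, against 7.22, 7.07 and 7.18 at 5d. The difference was -0.33 (SE 0.07, adjusted p = 0.000253). In glia dSOD1 flies it read 6.81, 6.62 and 6.84 at 45d, against 7.21, 7.26 and 7.34 at 5d, a difference of -0.51 (SE 0.07, 1.43-fold, adjusted p = 2.05e-07). The ages did not overlap in either. It fell by 0.22 in MN G85R flies (adjusted p = 0.00866), by 0.19 in MN+glia G85R flies (adjusted p = 0.0306) and by 0.26 in MN+glia dSOD1 flies (adjusted p = 0.00241). The MN+glia G85R value without the degraded array was -0.22 (SE 0.07, adjusted p = 0.0266). The MN G85R call of Vmat 1636275_a_at was lost without 5d replicate 2 or 3 (-0.18 each), and the MN+glia G85R call without 5d replicate 3 (-0.14) or any of the 45d replicates (-0.20 to -0.17). The MN+glia G85R call was lost too when fitted to the compared arrays only (adjusted p = 0.141). In MN dSOD1 flies the difference was -0.09 (SE 0.07, adjusted p = 0.312), with overlap.

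The other Vmat probe sets fell in fewer groups. Vmat 1637393_at fell by 0.45 in glia dSOD1 flies (SE 0.12, adjusted p = 0.00352) and by 0.45 in MN+glia dSOD1 flies (SE 0.12, adjusted p = 0.00398). In the MN+glia dSOD1 flies it read 6.83, 6.76 and 7.04 at 45d, against 7.25, 7.30 and 7.41 at 5d. Its differences in G85R flies were -0.21 to -0.06 and did not pass. Vmat 1628739_at fell by 0.25 in MN+glia dSOD1 flies (SE 0.08, adjusted p = 0.00936). In MN+glia G85R flies its difference was -0.23 (SE 0.08, adjusted p = 0.0227) with all arrays, but -0.15 (SE 0.08, adjusted p = 0.165) without the degraded array. The Vmat 1628739_at call was also lost without 45d replicate 1 (-0.18), and in dSOD1 flies without 5d replicate 2 (-0.16) or 45d replicate 1 (-0.20). With array weights the G85R value was -0.17 and did not pass. Fitted to the compared arrays only, Vmat 1628739_at passed in neither G85R (adjusted p = 0.138) nor dSOD1 flies (adjusted p = 0.0657).

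Whether ageing differed between driver lines was tested as a difference of differences, a comparison added after the values were seen. Of 60 member pairs, 1 passed. Vmat 1636275_a_at fell less in MN than in glia dSOD1 flies, with a difference of 0.43 (SE 0.10, adjusted p = 0.00812) between the changes of -0.09 and -0.51. It did not pass when fitted to the compared arrays only (adjusted p = 0.0576). The share of all probe sets that passed was 2.28%, 3.96% and 1.33% in G85R flies for MN minus glia, MN+glia minus MN and MN+glia minus glia, and 3.10%, 2.79% and 1.55% in dSOD1 flies. Without the degraded array, 3.60% passed for MN+glia minus MN and 1.19% for MN+glia minus glia in G85R flies, and the count of member pairs was again 1.

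The synthetic enzymes Ddc and Tdc2 each passed 1 of 6 ageing comparisons. Ddc fell in MN+glia dSOD1 flies, where it read 8.68, 8.66 and 8.75 at 45d, against 8.87, 8.92 and 8.88 at 5d. The change was -0.19 (SE 0.07, 1.14-fold, adjusted p = 0.0221), and Ddc did not pass without 5d replicate 2 or 45d replicate 1 or 2 (-0.18 each). Its difference was below 0 in all 6 comparisons (-0.19 to -0.05), and 5 did not pass. Tdc2 fell in MN dSOD1 flies, with 4.99, 5.16 and 4.95 at 45d, against 5.48, 5.06 and 5.52 at 5d (difference -0.32, SE 0.10, adjusted p = 0.0095). The replicate 2 array at 5d overlapped the 45d arrays, and the Tdc2 call was lost without 5d replicate 1 (-0.26) or 3 (-0.24), and when fitted to the compared arrays only (adjusted p = 0.0627). None of 6 ageing comparisons each passed for ple, Tbh, DAT and SerT, with values of -0.21 to -0.02, -0.05 to 0.17, -0.04 to 0.26 and -0.05 to 0.22.

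Marker lists of the cuticle and of neurons were read in the same comparisons. Of 6 probe sets in the cuticle and tanning list, 2 or 3 fell and 1 rose in each of the 6 comparisons, with medians of -0.73 to -0.18. The neuronal list had 2 to 5 of 11 probe sets lower and 0 higher, with medians of -0.15 to 0.00. Its calls were 6 of 33 pairs in G85R flies and 11 of 33 in dSOD1 flies, where 35.04% and 41.33% of all pairs passed. Gad1, which marks GABA neurons, fell by 0.53 to 0.93 in all 6. The pan-neuronal elav had differences of -0.19 to 0.14, none of which passed. The part of these markers in the Vmat and Ddc changes was not tested.

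**Figure D3:**
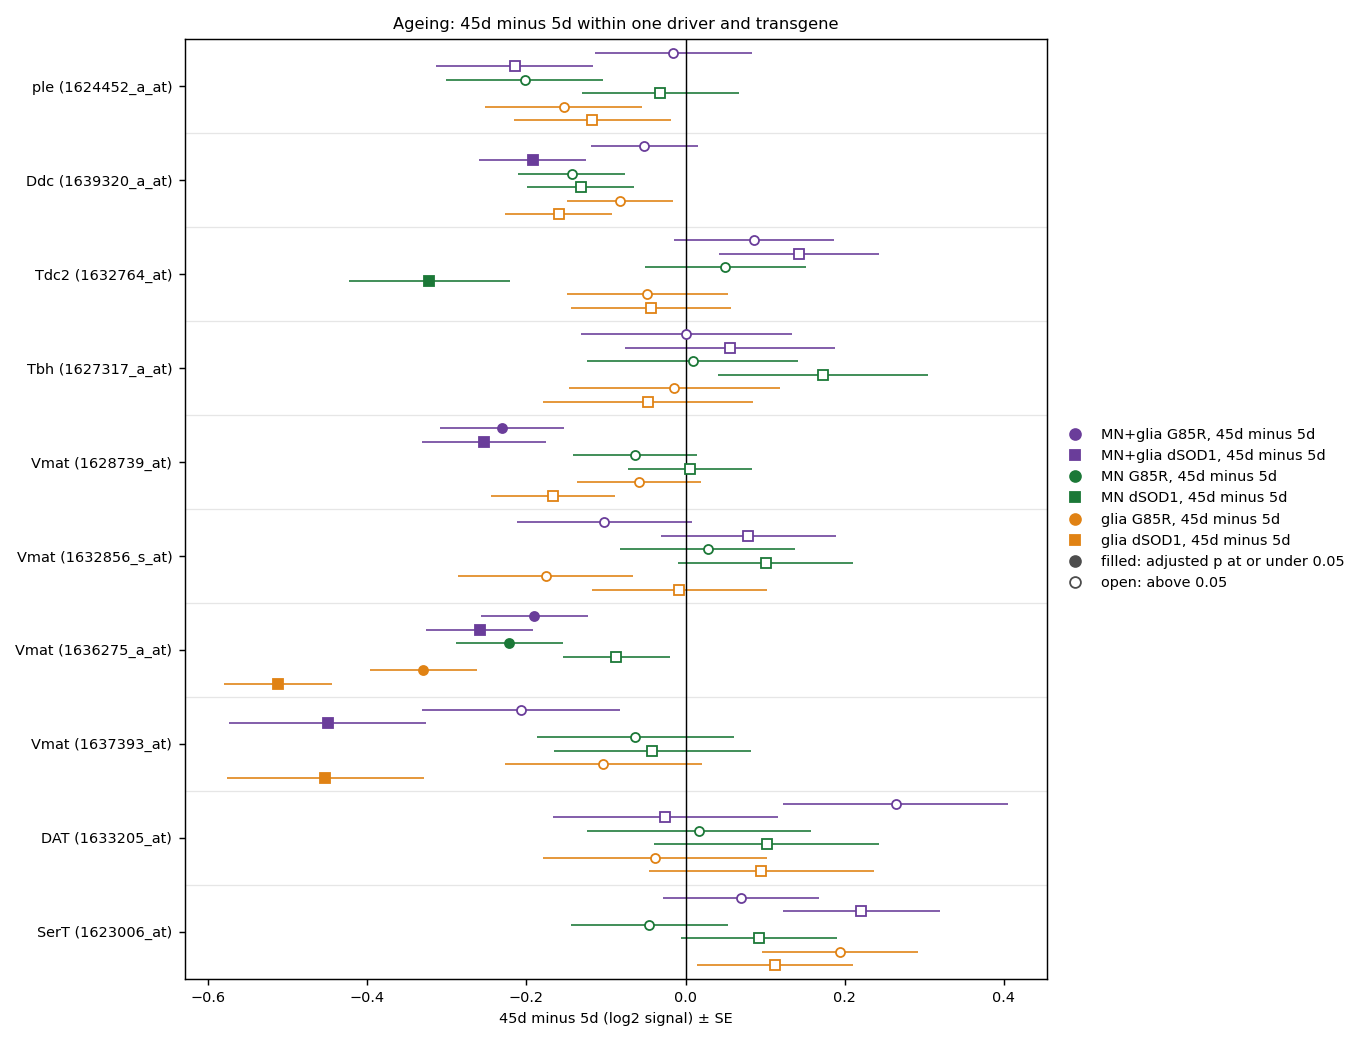
Change from ageing, 45d minus 5d, in log2 signal (x axis, bars are SE) for each of the 10 member probe sets. Colours mark the driver and symbols the transgene, with filled symbols for an adjusted p of 0.05 or less. All 11 filled symbols lie below 0, and 9 of them belong to Vmat.

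Other pathway genes changed with age in both directions. Of their 37 probe sets, 1 rose and 5 fell in MN+glia, 2 and 3 in MN and 3 and 8 in glia G85R flies. In dSOD1 flies 3 rose and 4 fell with MN+glia, 3 and 4 with MN and 5 and 3 with glia. These calls stand beside 35.04% of all pairs in G85R flies and 41.33% in dSOD1 flies. Tdc1, the tyrosine decarboxylase found outside the nervous system, rose in all 6 comparisons by 0.29 to 0.52 (SE 0.10). Catsup, which holds down tyrosine hydroxylase activity in flies, rose in 5 of 6 by 0.18 to 0.30 (SE 0.05). The conjugating enzyme ebony (e), which joins beta-alanine to dopamine, fell in all 6 by 0.30 to 1.0 (SE 0.07). Tan (t), which undoes that reaction, fell in 4 of 6 by 0.22 to 0.57 with all arrays. Its fall of 0.23 in MN+glia G85R flies (t, 1638505_at) did not pass without the degraded array (-0.15, adjusted p = 0.24). Octbeta1R 1626050_at fell by 0.36 to 0.60 in the G85R flies of all 3 lines and by 0.37 in MN+glia dSOD1 flies. Its change of -0.60 in MN+glia G85R flies was -0.42 (adjusted p = 0.00603) without the degraded array. DopEcR changed by -0.51 in MN+glia G85R flies, -0.47 in glia G85R flies and -0.38 in glia dSOD1 flies. Without the degraded array the first of these was -0.39 (adjusted p = 0.0381). Dop1R1 changed by -0.34 in glia G85R flies and by -0.54 in glia dSOD1 flies.

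Between G85R and dSOD1 flies of the same driver and age, the member differences ran from -0.39 to 0.45. Of 60 member pairs, 3 passed (5.00%), beside 9.09% of all pairs in these comparisons. With array weights, 6 of the 60 passed. DAT was higher and Tdc2 lower in MN G85R flies at 5d, and Ddc was higher in MN+glia G85R flies at 45d. The share of all probe sets that passed at 45d was 7.03% in MN+glia, 10.0% in MN and 9.97% in glia flies. At 5d it was 13.9%, 7.99% and 5.63% in the same order, and 6.51% in MN+glia flies without the degraded array. The count of member pairs was again 3 without that array. Fitted to the arrays of the compared groups only, none of the 3 passed (adjusted p = 0.139 for DAT, 0.0862 for Tdc2 and 0.0631 for Ddc), and 3 other pairs did: DAT in MN flies and Ddc and Vmat 1628739_at in glia flies, all at 45d.

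Ddc read 8.92, 8.97 and 8.92 in MN+glia G85R flies at 45d, against 8.68, 8.66 and 8.75 in MN+glia dSOD1 flies. The groups did not overlap, and the difference was 0.24 (SE 0.07, 1.18-fold, adjusted p = 0.0235). Leaving out dSOD1 replicate 1 or 2, or G85R replicate 2 or 3, gave Ddc 0.22 to 0.25 and ended the call. In glia flies at 45d Ddc read 8.84, 8.83 and 8.90 with G85R, against 8.66, 8.65 and 8.74 with dSOD1. That difference of 0.18 (SE 0.07) did not pass the test (adjusted p = 0.0922), though the groups did not overlap. In the other 4 comparisons it was 0.10 to 0.12. All 6 differences were thus above 0, and 1 passed. Of the 6 cuticle and tanning markers, 2 were higher and 0 lower in MN+glia G85R flies at 45d, where 7.03% of all probe sets passed. Over the 6 comparisons, 10 of 36 pairs of this list were higher and 0 lower, beside 9.09% of all pairs. The part of these markers in the Ddc difference was not tested.

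Tdc2 read 4.97, 4.99 and 4.94 in MN G85R flies at 5d, against 5.48, 5.06 and 5.52 in MN dSOD1 flies. The difference was -0.39 (SE 0.10, 1.31-fold, adjusted p = 0.0135). Without dSOD1 replicate 1 it was -0.33 and without replicate 3 it was -0.31, and Tdc2 passed in neither. In the other 5 comparisons Tdc2 differed by -0.09 to 0.10, and none passed. The MN dSOD1 5d arrays enter 3 of the 4 Tdc2 calls: this one, the fall with age in MN dSOD1 flies and the MN+glia minus MN difference. They held the highest group mean of Tdc2 (5.35 ± 0.25, SD, n = 3), and their replicates 1 and 3 were the highest of all 36 arrays.

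DAT read 5.97, 6.30 and 5.68 in MN G85R flies at 5d, against 5.63, 5.70 and 5.26 in MN dSOD1 flies. The lowest G85R array was just under the highest dSOD1 array. The difference was 0.45 (SE 0.14, 1.37-fold, adjusted p = 0.0449). Leaving out 1 array at a time gave DAT 0.29 to 0.60, and 10 of these 36 fits ended the call. Among them were those without G85R replicate 1 (0.46) or 2 (0.29) and without dSOD1 replicate 1 (0.50) or 3 (0.32), and the other 6 left out an array of another group. With array weights it was 0.47 and did not pass (adjusted p = 0.0529). At 45d in the same line the arrays read 6.13, 5.99 and 5.88 with G85R, against 5.56, 5.72 and 5.62 with dSOD1, without overlap, and the difference of 0.37 did not pass (adjusted p = 0.106). In MN+glia flies at 45d it was 0.40 (adjusted p = 0.0909). The DAT difference was above 0 in all 6 comparisons, at 0.11 to 0.45. Of the 11 neuronal marker probe sets, 2 were also higher in MN G85R flies at 5d, where 7.99% of all probe sets passed. They were ChAT, by 0.42, and Gad1, by 0.36, while elav differed by 0.07 (adjusted p = 0.898). Dop2R 1637749_at, which reads a dopamine receptor that also acts as an autoreceptor, was higher in the same comparison by 0.55 (SE 0.18, adjusted p = 0.0479). The other Dop2R probe set, 1637270_at, passed in no comparison of G85R with dSOD1. The part of neuronal markers in the DAT difference was not tested.

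Vmat did not pass in any of 24 pairs, with differences of -0.20 to 0.28 over its 4 probe sets. For ple the 6 differences were -0.18 to 0.20, for Tbh -0.01 to 0.28 and for SerT -0.07 to 0.21, and none passed.

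**Figure D4:**
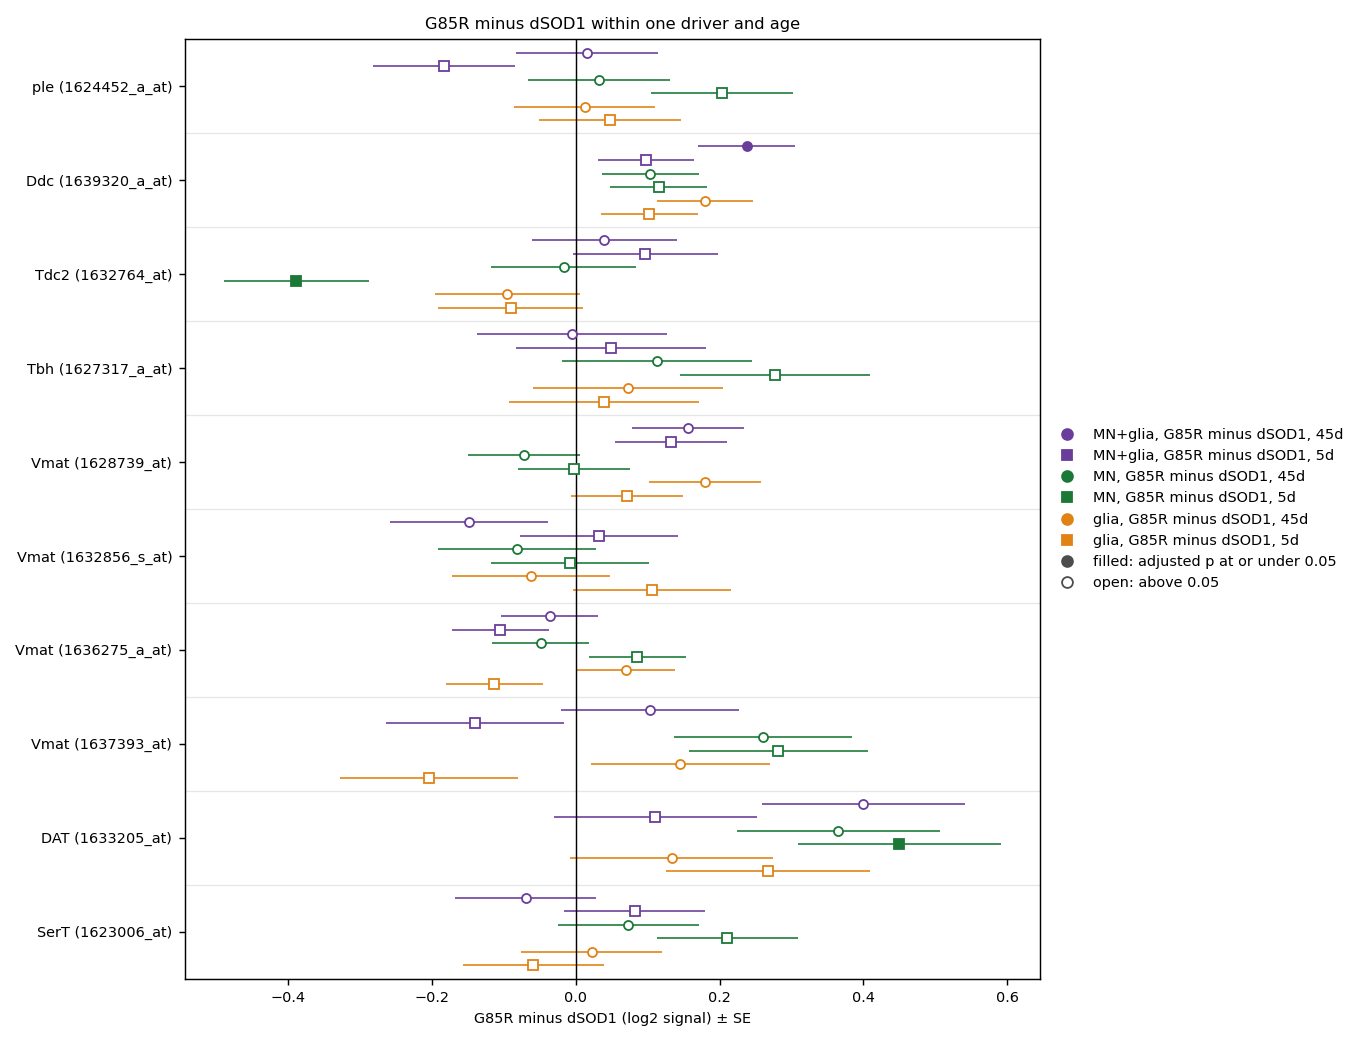
G85R minus dSOD1 difference in log2 signal (x axis, bars are SE) for each of the 10 member probe sets. Colours mark the driver and symbols the age, with filled symbols for an adjusted p of 0.05 or less. The 3 filled symbols are DAT at 0.45 and Tdc2 at -0.39 in MN flies at 5d and Ddc at 0.24 in MN+glia flies at 45d.

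The G85R difference was compared between ages within a line, and between lines within an age. None of 30 member pairs passed for the change with age, and 1 had an unadjusted p under 0.05. The lowest adjusted p was 0.244 (Tdc2 in MN flies, 0.37). Over all probe sets 3.86% passed in MN+glia, 1.49% in MN and 1.74% in glia flies, and 1.46% in MN+glia flies without the degraded array. None of 60 member pairs passed for the difference between lines, and 8 had an unadjusted p under 0.05. The closest was Tdc2 at 5d, whose G85R difference was 0.49 greater in MN+glia than in MN flies (SE 0.14, adjusted p = 0.057). Over all probe sets the shares at 45d were 1.42% for MN minus glia, 1.36% for MN+glia minus MN and 0.453% for MN+glia minus glia. At 5d they were 0.618%, 2.59% and 0.218%, and without the degraded array 1.02% for MN+glia minus MN and 0.144% for MN+glia minus glia. The calls of DAT, Tdc2 and Ddc are therefore not shown to be particular to 1 age or line.

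Of the other pathway genes, ebony differed most between G85R and dSOD1 flies. Its arrays in MN+glia flies at 45d read 7.81, 7.96 and 7.92 with G85R, against 7.19, 7.21 and 7.03 with dSOD1, a difference of 0.76 (SE 0.07, adjusted p = 6.09e-09). In glia flies at 45d they read 8.0, 7.97 and 8.05 with G85R, against 7.25, 7.28 and 7.33 with dSOD1, a difference of 0.72 (SE 0.07, adjusted p = 1.33e-08). Neither pair of groups overlapped. In MN flies at 45d they read 7.84, 7.82 and 7.85 with G85R, against 7.85, 7.86 and 7.63 with dSOD1, with overlap. The G85R difference at 45d was greater in MN+glia than in MN flies by 0.70 (SE 0.10, adjusted p = 6.7e-05), and lower in MN than in glia flies by 0.66 (adjusted p = 0.000162).

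The ebony difference also changed with age. It was greater at 45d than at 5d by 0.70 in glia flies (SE 0.10, adjusted p = 7.89e-05) and by 0.51 in MN+glia flies (SE 0.10, adjusted p = 0.00468). Without the degraded array the MN+glia value was 0.61 (SE 0.09, adjusted p = 0.000179). At 5d ebony read 8.19, 8.56 and 8.31 in MN+glia G85R flies, against 8.18, 8.09 and 8.06 in MN+glia dSOD1 flies. That difference of 0.25 passed with all arrays (adjusted p = 0.0239) and not without the degraded array (0.14, SE 0.07, adjusted p = 0.271). The astrocyte marker alrm was also higher in G85R flies at 45d, by 0.45 in MN+glia and by 0.81 in glia flies, while the glial marker moody was lower by 0.37 and 0.24. The 5 glial marker probe sets had 1 higher and 1 lower in each, beside 7.03% of all probe sets in MN+glia and 9.97% in glia flies. Group means of the 6 cuticle and tanning markers at 45d were 7.08 with G85R and 6.83 with dSOD1 in MN+glia flies. They were 7.12 and 6.85 in glia flies and 7.01 and 6.82 in MN flies. The part of glial, cuticle and tanning markers in the ebony difference was not tested.

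**Figure D5:**
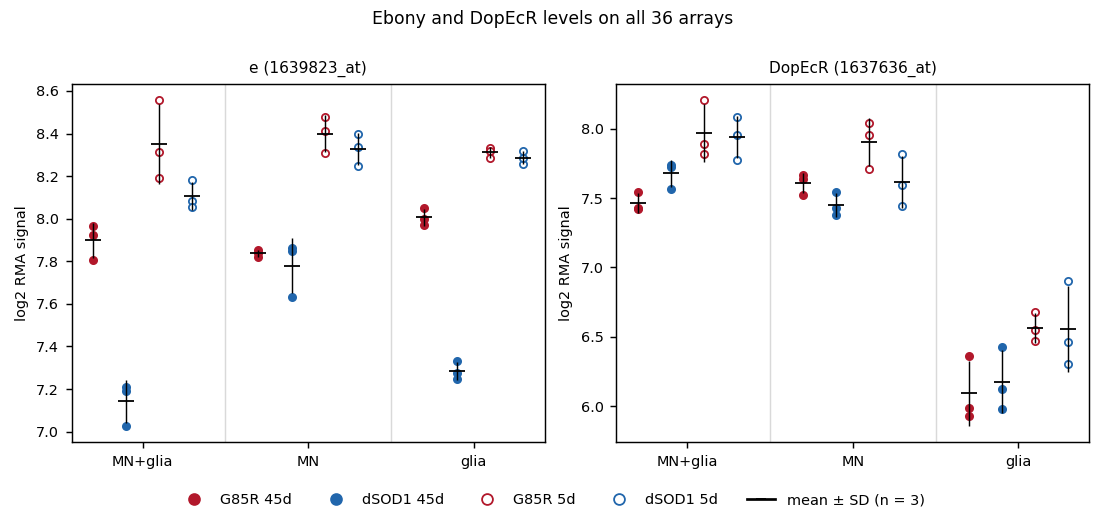
Log2 signal (y axis) of ebony and DopEcR on 36 arrays, with drivers along the x axis and, within each driver, G85R 45d, dSOD1 45d, G85R 5d and dSOD1 5d from left to right. Points are arrays, ticks are means and bars are SD (n = 3). In ebony the dSOD1 45d arrays of MN+glia flies (7.03 to 7.21) and glia flies (7.25 to 7.33) are the lowest of all groups. In DopEcR the 12 glia arrays do not exceed 6.90.

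Over the 37 probe sets of 28 other pathway genes, 1 to 5 passed for G85R minus dSOD1 in 5 of 6 comparisons and 0 passed in glia flies at 5d. The list counts that follow stand beside 9.09% of all pairs called in these comparisons. The cofactor list (5 genes for tetrahydrobiopterin, which tyrosine hydroxylase needs) had 2 calls in 30 pairs, both for Dhpr, a pteridine reductase. Dhpr was higher in MN G85R flies at 45d by 0.26 (SE 0.07, adjusted p = 0.0206). In MN+glia flies at 5d its difference was 0.29 (adjusted p = 0.00804), and 0.21 (adjusted p = 0.109) without the degraded array. Conjugation and breakdown gave 6 calls in 24 pairs, 3 of them for ebony. AANATL2, an acetyltransferase of amines, was lower in G85R flies at 45d by 0.33 in MN and by 0.38 in glia flies (SE 0.09), and tan was lower by 0.33 in MN flies at 45d (SE 0.08). Receptor lists gave 1 call in 24 pairs for dopamine, 1 in 42 for serotonin and 2 in 78 for octopamine and tyramine. Of the 5 calls in MN+glia flies at 5d, 1 passed without the degraded array (Octbeta1R 1640745_at, 0.36, adjusted p = 0.0393). The vesicular transporter relative prt passed in no comparison of G85R with dSOD1, of ages or of lines.

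Members were also set against each other and against all probe sets over the 12 group means, as a description only, since these means share arrays and drivers. Vmat 1628739_at and 1636275_a_at had r = 0.88, and 1636275_a_at and 1637393_at had r = 0.82. DAT had r = 0.84 with Vmat 1637393_at and 0.44 with Vmat 1628739_at. Tdc2 and Tbh had r = -0.78, though their group means spanned only 0.49 and 0.29 and Tbh was among the dimmest probe sets. MN dSOD1 5d flies held both the highest mean of Tdc2 (SD 0.25) and the lowest of Tbh (SD 0.29). Among 7072 one-gene probe sets whose group means ranged over at least 0.5 log2 units, those most like Vmat 1628739_at were nSyb (r = 0.953), vis (0.940) and Trpm (0.940). Most like DAT were Pdp1 (0.975), Sur-8 (0.955) and l(3)neo38 (0.950), and most like SerT were toy (0.951), kuz (0.935) and bnb (0.929). For Ddc they were Cby, pim and 7B2 (0.917 to 0.925), and for Tdc2 croc, CG17127 and RunxA (0.740 to 0.764). For ple they were Snap25, tapas and Ack (0.925 to 0.943), and for Tbh CG6231, Dark and CG12182 (0.834 to 0.888). For Vmat 1637393_at, looked up after its values were seen, they were DopEcR (0.979), Imp (0.972) and shi (0.972).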

How the data were processed

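The authors normalized the arrays by robust multiarray averaging (RMA) in Robin and deposited log2 values; the submitters' processing notes name RMA and limma. Whether all arrays were normalized together is not given in the sources used here. Probe sets were named from the platform annotation: of 18769 fly probe sets, 13647 name 1 gene, 402 several and 4720 none. The 183 control probe sets were left out. limma 3.58.1 (R 4.3.3) was fitted to all 36 arrays with 1 mean per group, without a replicate block, and p-values were adjusted by Benjamini-Hochberg within each comparison. The fit was tested on simulated data. All member probe sets are named; other pathway genes come from fixed lists, and likeness was measured by Pearson's r over group means. The members and lists were chosen with earlier results of these data known. Alternatives covered normalization, array weights, a filter on dim probe sets, 1 probe set per gene, the adjustment, a replicate block, fits to the compared arrays only and leaving out each array. The replicates were separate pools, and 3 per group limit the precision. The study's methods left out 1 glia G85R 5d array for RNA degradation, whereas the controls here marked a MN+glia G85R 5d array, which was kept in the main fit and left out as an alternative. No sequences are shown.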

Additional observations from a re-analysis of the deposited data

Results flagged for a closer look

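The fall of Vmat 1636275_a_at with age differed between driver lines in dSOD1 flies, as tested by the difference of the 2 changes. The change at 45d against 5d was 0.43 less negative in MN than in glia flies (SE 0.10, adjusted p = 0.00812). The changes themselves were -0.09 in MN and -0.51 in glia flies. The comparison was added after the values were seen, and fitted to the 12 arrays of these groups alone the difference of Vmat 1636275_a_at did not pass. In G85R flies no member probe set passed the same test.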

How the results depend on the processing

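Of 58 member differences that passed, 34 also passed under all 45 alternatives and 39 under all of those that did not leave out 1 array, and none changed sign. Of 332 that did not pass, 37 passed under at least 1 alternative. With array weights, 6 member pairs passed for G85R against dSOD1 (3 in the main analysis), 1 for the G85R difference between drivers (0) and 5 for ageing between drivers (1). With 1 probe set per gene, 7 member probe sets were tested in place of 10, and the counts were 1 for ageing in G85R flies (4), 4 for ageing in dSOD1 flies (7), 1 for the G85R difference between drivers (0), 12 for driver lines in G85R flies (19), 14 for driver lines in dSOD1 flies (24) and 0 for ageing between drivers (1). Fitted to the compared arrays only, 0 passed for ageing between drivers. The filter on dim probe sets gave ple, Tbh and Vmat 1632856_s_at no value.

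Leaving out each array in turn gave 1 to 4 member pairs for G85R against dSOD1, 3 to 5 for ageing in G85R flies, 5 to 9 for ageing in dSOD1 flies, 0 to 1 for the change of the G85R difference with age, 0 to 1 for the G85R difference between drivers, 18 to 22 for driver lines in G85R flies, 19 to 25 for driver lines in dSOD1 flies and 1 to 2 for ageing between drivers.

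Replicate numbers did not pair the samples: the deviations of same-numbered arrays correlated over 0.1 in 4 of 18 pairs (-0.30 to 0.21). With a replicate block the counts in the order above were 3, 4, 7, 0, 0, 21, 24 and 1. The 3 arrays per group limit what can be detected, and the dimmest members have the least signal over background.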
